A study of Mus musculus with 12 samples.

Results

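The 9 genes followed here encode adhesion and homing receptors of leukocytes: the integrin subunits *Itgam*, *Itgal*, *Itga4*, *Itgb1* and *Itgb2*, the selectin ligand *Selplg*, the hyaluronan receptor *Cd44*, and the chemokine receptors *Cxcr4* and *Cxcr2*. They are the rows of a named list of receptors found by symbol in the deposited table of transcript abundances, 9 of its 15651 genes in TPM (abundance per transcript length, scaled to the total of the library). All 9 reached the limit for testing, a group mean of 1 TPM or more. Cells were c-Kit-enriched leukemic splenocytes of moribund mice with AML, of which 3 (*D/F*) had the genotype Dnmt3afl/fl,Flt3ITD/ITD,Mx1Cre and the other 3 (*T/F*) the genotype Tet2fl/fl,Flt3ITD/ITD,Mx1Cre. Cells of each mouse were divided between CCS1477, which occupies the bromodomains of the acetyltransferases p300 and CBP, and DMSO. After 6 hours this gave 4 groups of 3 libraries, 12 in all. The dose of CCS1477 was 4 μM for *D/F* and 2 μM for *T/F* cells, so that genotype and dose cannot be told apart in any difference between their responses. All groups carry the *Flt3* internal tandem duplication from the germline and were cultured with the cytokines SCF, IL6 and IL3. By the study's methods the interferon-inducible *Mx1-Cre* was used without an inducer, so cells may have lost 1 or both floxed alleles.

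Integrins are pairs of an alpha and a beta subunit that bind other cells or matrix once signals from inside the cell have opened them. Leukocytes roll on vessel walls through selectins, which bind the glycoprotein PSGL-1, then arrest through integrins when chemokines engage their receptors, and the same molecules hold hematopoietic and leukemic progenitors in the marrow niche. The integrin alpha M beta 2 (Mac-1) and alpha L beta 2 (LFA-1) share the beta 2 subunit, whereas the integrin alpha 4 pairs with beta 1 to form VLA-4, the receptor for VCAM-1 and fibronectin.

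The labelled cell type was checked against marker genes. *Kit*, by which the cells were enriched, was between 22.8 and 149 TPM in the 12 libraries, and *Mpo*, an enzyme of myeloid progenitor granules, between 277 and 3673 TPM. Neutrophil transcripts were also abundant, with *S100a8* between 807 and 4682 TPM, while *Cd3e*, which defines T cells, is not among the genes analysed here. *Dnmt3a* overlapped between the genotypes (with DMSO, 29.3 to 55.7 TPM in *D/F* and 39.9 to 53.9 TPM in *T/F*), and *Tet2* was lower in *T/F* (30.0 to 35.8 TPM) than in *D/F* (38.3 to 43.4 TPM) with DMSO. Among *D/F* mice, replicate 2 stood apart: its DMSO library had the lowest summed TPM of the progenitor list (3625, against 7752 and 10020 in the others) and of the neutrophil list (2808, against 6375 and 9549). Because TPM is a share of the transcripts of a library, without a spike-in, a change of RNA per cell over all genes would not be seen, and in bulk samples fewer cells of a type cannot be told apart from less RNA per cell.

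With CCS1477, 8 of the 9 genes were lower than with DMSO in all 6 mice, and *Itgb1*, the common beta 1 subunit, was the exception. Among all 15455 genes tested over both genotypes, 24.4% were lower in all 6 mice. The 9 genes summed to 1079, 1164 and 892 TPM with DMSO in *D/F* replicates 1, 2 and 3, and to 571, 443 and 508 TPM with CCS1477. In *T/F* the sums were 1006, 1077 and 1045 TPM with DMSO and 669, 715 and 695 TPM with CCS1477. Treated *D/F* cells thus retained 52.9%, 38.1% and 57.0% of the summed TPM, and treated *T/F* cells 66.5%, 66.3% and 66.5%.

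**Figure D1:**
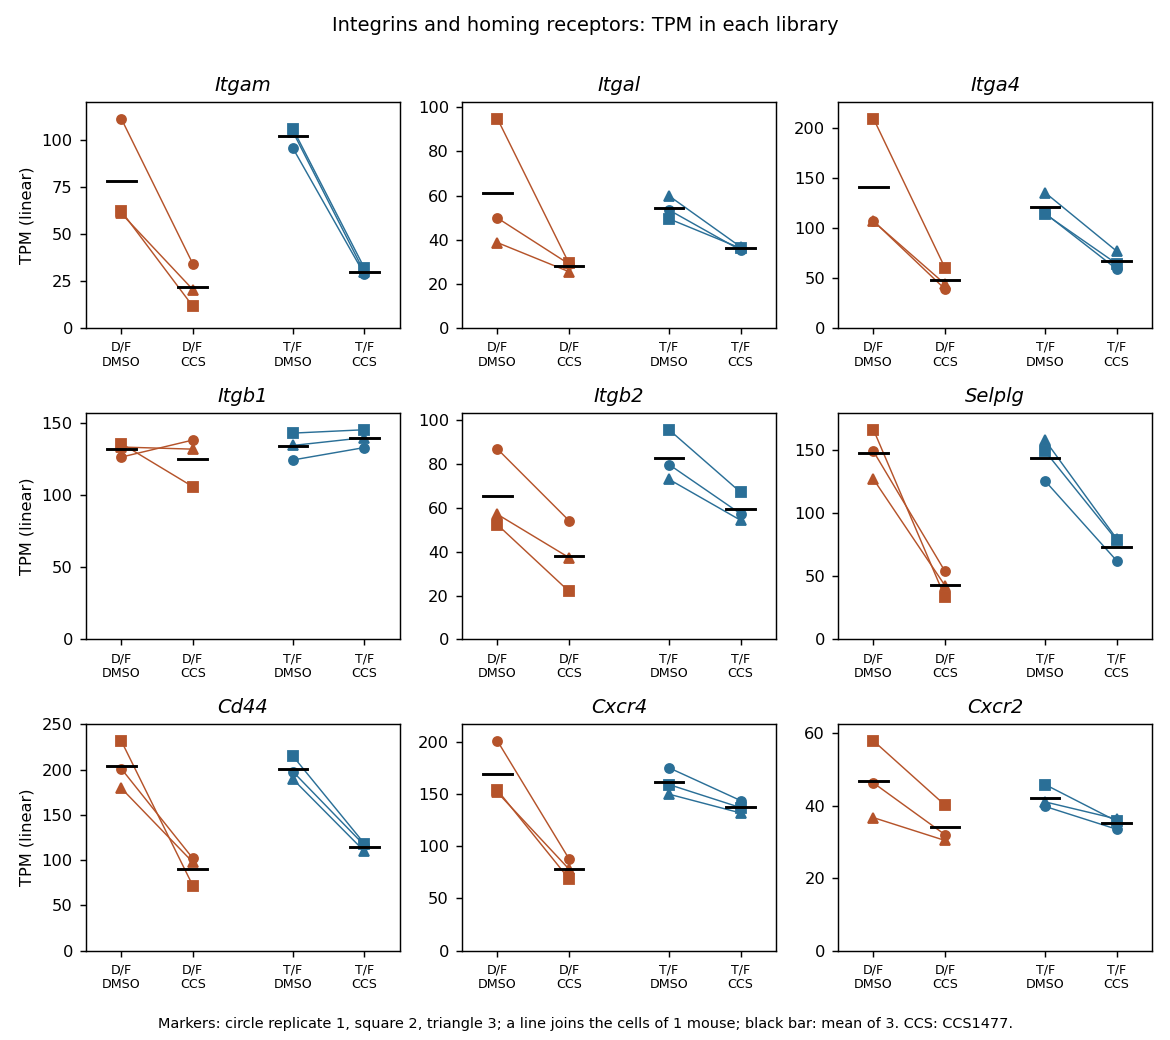
TPM (linear axis from 0) of each of the 9 genes in the 12 libraries, with *D/F* in brown and *T/F* in blue, a line joining the DMSO and CCS1477 cells of 1 mouse and a black bar at the mean of 3. *Itgam* fell in every mouse, from between 61.1 and 112 TPM to between 11.7 and 34.3 TPM, while *Itgb1* remained between 106 and 145 TPM in all 12 libraries.

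The promoters of 3 genes are printed because these genes mark the range of the responses: *Itgam* had the largest fall over both genotypes, *Itgb1* did not pass the test in either genotype, and *Cxcr4* had the largest difference of response between genotypes. Each is the 250 bases before the RefSeq transcription start in GRCm38.p6, from 5′ to 3′ on the gene's own strand. They lie at chr7:128062390-128062639 (plus strand) for *Itgam*, chr8:128685404-128685653 (plus strand) for *Itgb1* and chr1:128592300-128592549 (minus strand) for *Cxcr4*. Capitals mark matches, on either strand, to 6 short motifs.
Itgam: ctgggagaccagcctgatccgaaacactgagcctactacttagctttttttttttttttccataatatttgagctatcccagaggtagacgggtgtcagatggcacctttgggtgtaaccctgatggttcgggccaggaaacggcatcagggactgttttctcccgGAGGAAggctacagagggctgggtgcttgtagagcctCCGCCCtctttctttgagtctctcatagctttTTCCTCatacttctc
Itgb1: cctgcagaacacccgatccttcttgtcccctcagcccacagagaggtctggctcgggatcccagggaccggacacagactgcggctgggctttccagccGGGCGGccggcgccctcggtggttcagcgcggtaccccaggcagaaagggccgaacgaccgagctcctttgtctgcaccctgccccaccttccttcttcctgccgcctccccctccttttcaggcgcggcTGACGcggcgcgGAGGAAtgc
Cxcr4: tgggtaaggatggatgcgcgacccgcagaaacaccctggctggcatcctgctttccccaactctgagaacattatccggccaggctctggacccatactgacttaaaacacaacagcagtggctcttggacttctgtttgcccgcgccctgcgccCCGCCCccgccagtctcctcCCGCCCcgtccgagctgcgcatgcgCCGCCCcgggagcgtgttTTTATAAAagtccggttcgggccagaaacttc
The GC box was searched as GGGCGG. The CCAAT box was searched by the letters of its name, the TATA box as TATAAA and the E-box as CACGTG. For PU.1, a myeloid transcription factor, the core GAGGAA of its site was used, and for the cyclic AMP response element (CRE) the core TGACG. The *Itgam* window held 2 PU.1 cores and 1 GC box. The *Itgb1* window held 1 each of the GC box, PU.1 core and CRE core, and the *Cxcr4* window held 3 GC boxes and 2 overlapping TATA boxes, 1 on each strand. Of 32851 promoter windows of the same length, 32.7% held the GC box, 23.3% the PU.1 core, 17.8% the CRE core, 12.4% the TATA box, 33.8% the CCAAT box and 6.02% the E-box. The PU.1 core thus occurred both in the window of the gene with the largest fall and in that of the gene that did not pass, and matches are a description of these letters only. Sequences were found for 6 of the 9 genes. *Itga4* held 1 GC box, *Cd44* 2 PU.1 cores, and *Cxcr2* 1 CCAAT box and 1 PU.1 core.

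*Itgam* (ENSMUSG00000030786, chromosome 7 from 128062640 to 128118491 in GRCm38) encodes CD11b, the alpha M chain of Mac-1, a receptor of granulocytes and monocytes for complement fragments and ICAM-1. In *D/F* cells it was 112, 62.3 and 61.1 TPM with DMSO and 34.3, 11.7 and 20.6 TPM with CCS1477 in replicates 1, 2 and 3. In *T/F* cells it was 95.8, 106 and 105 TPM with DMSO and 28.6, 31.9 and 29.7 TPM with CCS1477. No treated library reached the lowest DMSO library of its genotype, and each mouse retained between 18.8% and 33.7% of its *Itgam* TPM. *Itgam* fell by 1.84 on the log2 scale in *D/F* (SE 0.42, limma adjusted p = 0.0409) and by 1.73 in *T/F* (SE 0.07, limma adjusted p = 0.000284). Of all genes tested, 1.81% had a lower fold change in *D/F* and 1.26% in *T/F*. The *D/F* value was close to the limit, with an adjusted p from limma of 0.0537 at a pseudocount of 0.1 and between 0.0544 and 0.280 when a mouse was left out.

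*Itgal* (ENSMUSG00000030830, chromosome 7 from 127296260 to 127335138) encodes CD11a, the alpha L chain of LFA-1. With DMSO it was 49.9, 94.8 and 38.8 TPM in *D/F* and 53.5, 49.5 and 59.9 TPM in *T/F*. With CCS1477 it was 29.1, 29.4 and 25.6 TPM in *D/F* and 35.3, 36.2 and 36.8 TPM in *T/F*. The treated libraries were thus tightly grouped and below every DMSO library, and the width of the *D/F* DMSO group came from replicate 2. The log2 fold change in *T/F* was -0.57 (SE 0.08, limma adjusted p = 0.00364), and without replicate 1 its adjusted p was 0.0503. In *D/F* it was -0.997 (SE 0.33, 95% interval -1.79 to -0.21) and did not pass (limma adjusted p = 0.0980), but passed with the mouse as a block (adjusted p = 0.0387) and with each library scaled to its median gene. Without *D/F* replicate 2 the log2 fold change in *D/F* was -0.67 (limma adjusted p = 0.0579).

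*Itga4* (ENSMUSG00000027009, chromosome 2 from 79255426 to 79333123) encodes CD49d, the alpha 4 chain of VLA-4, through which progenitors adhere to marrow stroma. *D/F* cells had 107, 209 and 106 TPM with DMSO and 39.0, 60.1 and 44.0 TPM with CCS1477. *T/F* cells had 114, 114 and 135 TPM with DMSO and 58.9, 64.3 and 76.8 TPM with CCS1477. Replicate 2 was highest in both *D/F* groups, yet the groups did not overlap. *Itga4* fell by 1.49 on the log2 scale in *D/F* (SE 0.32, limma adjusted p = 0.0348) and by 0.86 in *T/F* (SE 0.12, limma adjusted p = 0.00344). Individual *D/F* mice retained between 28.8% and 41.4% of their *Itga4* TPM and *T/F* mice between 51.5% and 56.8%.

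Of the beta subunits, *Itgb1* (ENSMUSG00000025809, chromosome 8 from 128685654 to 128733200), the CD29 chain shared by VLA-4 and many matrix-binding integrins, did not pass the test. It was 126, 136 and 133 TPM with DMSO and 138, 106 and 132 TPM with CCS1477 in *D/F*. In *T/F* it was 125, 143 and 135 TPM with DMSO and 133, 145 and 140.0 TPM with CCS1477. The treated and DMSO libraries overlapped in both genotypes, and the largest difference within a mouse was that of *D/F* replicate 2, from 136 to 106 TPM. Its log2 fold change was -0.08 among *D/F* mice (95% interval -0.47 to 0.30, limma adjusted p = 0.779) and 0.06 in *T/F* (95% interval -0.13 to 0.25, limma adjusted p = 0.577). Over both genotypes it was -0.01, with a 95% interval from -0.19 to 0.17 (limma adjusted p = 0.925), which does not reach a 2-fold change in either direction. The sign of these values depended on the scaling and the mice: with quantile normalization they were 0.03 in *D/F* and 0.08 over both genotypes, and without *D/F* replicate 2 both were 0.06.

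*Itgb2* (ENSMUSG00000000290, chromosome 10 from 77530252 to 77565708) encodes CD18, the beta chain of Mac-1 and LFA-1. In *D/F* it was 87.0, 52.4 and 57.1 TPM with DMSO and 54.3, 22.0 and 37.4 TPM with CCS1477, so that replicate 1 with CCS1477 lay above replicate 2 with DMSO. In *T/F* it was 79.9, 95.8 and 73.1 TPM with DMSO and 57.4, 67.2 and 54.4 TPM with CCS1477, without overlap. Differences between mice were thus as large as the treatment difference in *D/F*, although all 6 mice were lower with CCS1477. For *D/F* the log2 fold change was -0.83 (SE 0.36, 95% interval -1.70 to 0.04, limma adjusted p = 0.182), and blocking on the mouse gave an adjusted p of 0.0220. In *T/F*, *Itgb2* fell by 0.46 on the log2 scale (SE 0.13, limma adjusted p = 0.0323), and leaving out any 1 of the 3 mice gave adjusted p-values between 0.0532 and 0.158.

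Since TPM is scaled by transcript length, subunits can be set against each other within a library. The ratio of *Itga4* to *Itgb1* TPM, the 2 chains of VLA-4, was 0.845, 1.54 and 0.798 in *D/F* cells with DMSO and 0.282, 0.567 and 0.334 with CCS1477. In *T/F* cells it was 0.920, 0.795 and 1.00 with DMSO and 0.443, 0.442 and 0.549 with CCS1477. With DMSO the alpha 4 transcript was thus near that of beta 1, except in *D/F* replicate 2, where it was higher. With CCS1477 the ratio was at most 0.567 and lower than with DMSO in both genotypes (two-sided exact permutation p = 0.1 for either, the smallest p that 3 against 3 samples allow). The permutation tests of ratios did not pair the libraries of a mouse, so differences between mice enter their p-values. A paired test of the ratios was not run. The ratio of *Itgam* to *Itgal* fell in each mouse. Its mean ratio was 1.49 ± 0.793 (SD, n = 3) with DMSO and 0.794 ± 0.390 (SD, n = 3) with CCS1477 in *D/F* (exact permutation p = 0.3), and 1.89 ± 0.217 and 0.833 ± 0.0424 (SD, n = 3) in *T/F* (exact permutation p = 0.1). In every *T/F* mouse the order of these alpha chains was reversed with CCS1477, from more *Itgam* to more *Itgal*. Among *D/F* mice it was reversed in replicate 3 (1.58 to 0.805) but not in replicate 1 (2.24 to 1.18). In *D/F* replicate 2 *Itgal* was already higher with DMSO, at a ratio of 0.657. The alpha chains that pair with beta 2 (*Itgam*, *Itgal* and *Itgax*) summed to 2.37 ± 0.866 times *Itgb2* with DMSO and 1.46 ± 0.399 times with CCS1477 in *D/F* (SD, n = 3, exact permutation p = 0.3), and to 2.04 ± 0.419 and 1.15 ± 0.130 times in *T/F* (SD, n = 3, exact permutation p = 0.1).

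**Figure D2:**
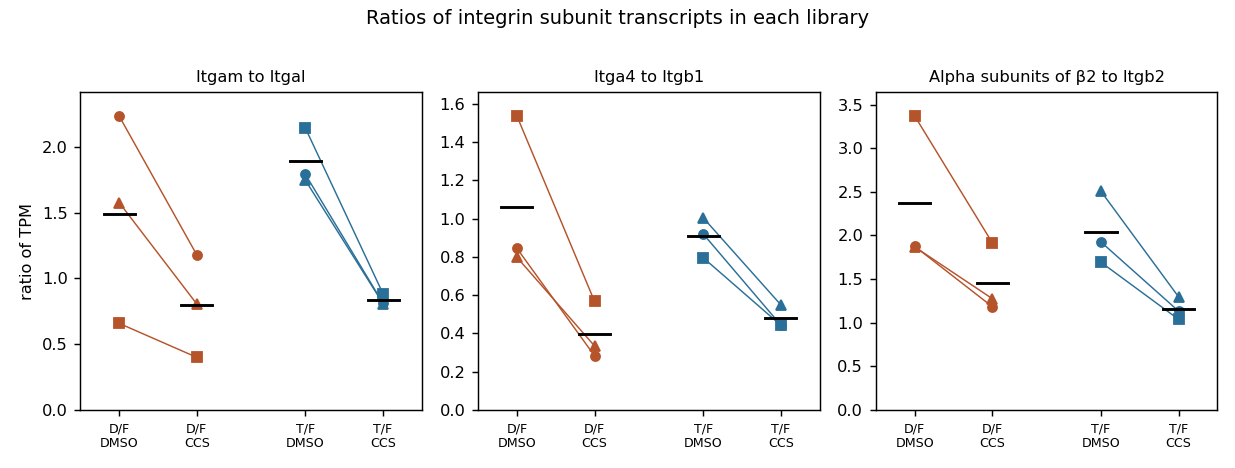
Ratios of TPM (linear axis from 0) of *Itgam* to *Itgal*, *Itga4* to *Itgb1*, and the summed alpha subunits of beta 2 (*Itgam*, *Itgal* and *Itgax*) to *Itgb2* in each library, with lines joining the cells of 1 mouse and black bars at the means of 3. All 3 ratios were lower with CCS1477 in all 6 mice, and *D/F* replicate 2 (squares in brown) began at the lowest *Itgam* to *Itgal* ratio, 0.657.

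*Selplg* (ENSMUSG00000048163, chromosome 5 from 113818536 to 113832644, minus strand) encodes PSGL-1, the ligand through which leukocytes roll on P-selectin, E-selectin and L-selectin. It was 149, 166 and 127 TPM with DMSO and 53.8, 33.3 and 42.5 TPM with CCS1477 in *D/F*. The *T/F* libraries held 125, 149 and 157 TPM with DMSO and 62.2, 78.4 and 79.6 TPM with CCS1477. Groups were far apart in both genotypes, and the treated *D/F* libraries were all below the treated *T/F* libraries. *Selplg* fell by 1.76 on the log2 scale in *D/F* (SE 0.22, limma adjusted p = 0.00903), which is 3.39-fold, and by 0.96 in *T/F* (SE 0.13, limma adjusted p = 0.00297), which is 1.95-fold.

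*Cd44* (ENSMUSG00000005087, chromosome 2 from 102811141 to 102901665, minus strand), a receptor for hyaluronan that in glycosylated form also binds E-selectin, was the most abundant of the 9 with DMSO. *D/F* cells had 201, 232 and 179 TPM with DMSO and 102, 71.8 and 97.6 TPM with CCS1477. *T/F* cells had 198, 215 and 189 TPM with DMSO and 116, 118 and 109.7 TPM with CCS1477. *Cd44* dropped by 1.17 on the log2 scale in *D/F* (SE 0.20, limma adjusted p = 0.0191) and by 0.80 in *T/F* (SE 0.07, limma adjusted p = 0.000912), with no overlap of groups. TPM per gene does not separate the splice variants of *Cd44*.

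*Cxcr4* (ENSMUSG00000045382, chromosome 1 from 128588199 to 128592293, minus strand) encodes the receptor for CXCL12, which retains progenitors and blasts in the marrow. It was 201, 154 and 152 TPM with DMSO and 88.3, 69.0 and 78.3 TPM with CCS1477 in *D/F*. In *T/F* it was 176, 159 and 150.2 TPM with DMSO and 144, 137 and 132 TPM with CCS1477. DMSO libraries of the genotypes overlapped, whereas every treated *D/F* library was below every treated *T/F* library. It fell by 1.09 on the log2 scale in *D/F* (SE 0.18, limma adjusted p = 0.0191), which is 2.13-fold. In *T/F* the change was -0.23 (SE 0.08, 95% interval -0.43 to -0.03), lower in 3 of 3 mice but not past the limit (limma adjusted p = 0.0677), and with the mouse as a block it passed (adjusted p = 0.0267). *T/F* mice retained between 82.1% and 88.0% of their *Cxcr4* TPM and *D/F* mice between 43.8% and 51.5%.

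*Cxcr2* (ENSMUSG00000026180, chromosome 1 from 74153989 to 74161246), the receptor by which neutrophils follow CXCL1, CXCL2 and related chemokines, was the least abundant with DMSO and, of the 8 genes that were lower, the least changed over both genotypes. Its levels in *D/F* were 46.2, 57.9 and 36.7 TPM with DMSO and 32.0, 40.1 and 30.4 TPM with CCS1477, with overlap. In *T/F* they were 39.8, 45.8 and 41.0 TPM with DMSO and 33.5, 35.7 and 36.3 TPM with CCS1477, without overlap. The change in *D/F* was -0.43 on the log2 scale (SE 0.22, 95% interval -0.95 to 0.09, limma adjusted p = 0.234; 0.0348 with the mouse as a block). *Cxcr2* fell by 0.25 on the log2 scale in *T/F* (SE 0.08, limma adjusted p = 0.0428), and leaving out any 1 of the 3 mice gave adjusted p-values between 0.104 and 0.187.

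Counted over the list, 5 of the 9 genes fell in *D/F* at an adjusted p under 0.05 in limma (*Itgam*, *Itga4*, *Selplg*, *Cd44* and *Cxcr4*), all by more than 2-fold. None rose, at an adjusted or an unadjusted p under 0.05. Over all 15501 genes tested in *D/F*, 11.6% passed, 6.51% were lower, and 4.61% were lower by more than 2-fold. In *T/F*, 7 of 9 fell (all but *Itgb1* and *Cxcr4*), 1 of them, *Itgam*, by more than 2-fold, where 43.4% of 15256 genes passed, 17.6% were lower and 4.7% were lower by more than 2-fold. Median log2 fold changes of the 9 were -1.09 (*D/F*) and -0.57 (*T/F*), against 0.06 and 0.07 over all genes tested. Every treated library was below every DMSO library for 6 of the 9 in *D/F* and 8 of the 9 in *T/F*, against 16.7% and 22.6% of all genes. With the mouse as a block, 8 of 9 passed in each genotype, against 39.3% and 54.1% of all genes (18% and 22.9% lower). Quantile normalization turned the split of all genes called in *D/F* from 796 higher and 1009 lower into 1539 higher and 1290 lower, with 5 of the 9 receptor genes lower in each.

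The *D/F* calls of the fit without a block depended on the mice. Fits with a mouse left out had fewer libraries and did not use the pairing by mouse. Leaving out a mouse was not combined with the mouse as a block. Without *D/F* replicate 1 or without replicate 3, 0 genes of the whole table passed in limma (2494 and 2330 at an unadjusted p under 0.05), hence 0 of the 9, while 6 of the 9 had an unadjusted p under 0.05 each time and their median log2 fold change was -1.12 and -1.21. Without replicate 2, which had the largest fall for 7 of the 9 genes, 3739 genes passed and 4 of the 9 did (*Itga4*, *Selplg*, *Cd44* and *Cxcr4*), 3 of them by more than 2-fold, with a median of -0.92. In *T/F*, 4 of the 9 and 3473 of all genes passed without replicate 1, 5 and 3192 without replicate 2, and 5 and 5122 without replicate 3.

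**Figure D3:**
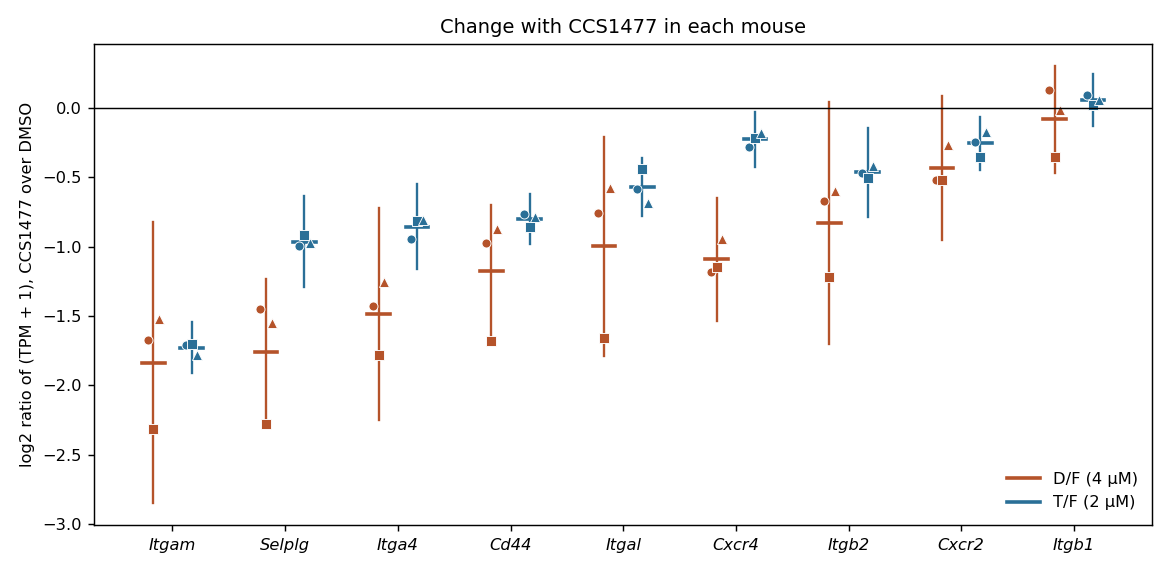
Log2 ratio of (TPM + 1) of CCS1477 over DMSO in each mouse (circle, square and triangle for replicates 1, 2 and 3), with *D/F* at 4 μM in brown and *T/F* at 2 μM in blue; short bars are the limma estimates and vertical lines their 95% intervals, and genes are ordered by the change over both genotypes. Points of *T/F* mice lie close together, while *D/F* replicate 2 lies lowest for 7 of the 9 genes.

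With genotype as a covariate and 6 mice, 8 of the 9 genes fell at an adjusted p under 0.05 in limma, against 45.7% of all genes that passed, 19.7% that were lower and 5.75% that were lower by more than 2-fold. *Itgam* fell by 1.78 on the log2 scale, *Selplg* by 1.36 and *Itga4* by 1.17, which were the 3 above 2-fold. *Cd44* fell by 0.99, *Itgal* by 0.78, *Cxcr4* by 0.66, *Itgb2* by 0.65 and *Cxcr2* by 0.34. *Itgb2* (limma adjusted p = 0.0231) and *Cxcr2* (limma adjusted p = 0.0275) lost their calls when some single mice were left out, with adjusted p-values of up to 0.0618 and 0.0908.

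Median log2 fold changes of the marker lists of cell types were negative in both genotypes, although single markers went the other way. All 7 progenitor markers were lower with CCS1477 in all 6 mice, as were 24.4% of all genes. In limma 0 of the 7 passed in *D/F* and 5 fell in *T/F*, and with the mouse as a block 7 fell in each genotype. The summed TPM of this list in *D/F* lay between 3625 and 10020 with DMSO and between 802 and 4275 with CCS1477, with overlap. The same sum in *T/F* lay between 4151 and 6377 with DMSO and between 1665 and 3002 with CCS1477, without overlap. Monocyte markers, of which 7 of 8 are in the table, summed in *D/F* to 450.1 to 1250.1 TPM with DMSO and 169.7 to 587 TPM with CCS1477, with overlap. In *T/F* they summed to 364 to 538 TPM with DMSO and 192 to 293 TPM with CCS1477, without overlap. The 10 neutrophil markers overlapped between treatments in sum in both genotypes (2808 to 9549 against 1647 to 9368 TPM in *D/F*, 2397 to 7249 against 2512 to 6938 TPM in *T/F*), a sum made up mostly of *S100a8*, *S100a9* and *Ngp*. By gene, 6 of the 10 (*Ly6g*, *Mmp9*, *Mmp8*, *Camp*, *Retnlg* and *Csf3r*) were lower in all 6 mice. The others were mixed: *S100a8* was lower in 4 of 6 mice, *S100a9* and *Ngp* in 2, and *Ltf* in 1. The median change of the list on the log2 scale was -1.07 for *D/F* and -0.69 for *T/F*. In limma 3 of the 10 fell for *D/F* and 2 for *T/F*. When mice were blocked, 5 fell for *D/F*, and for *T/F* 6 fell and 1, *Ngp*, rose (adjusted p = 0.0108). The falls included *Csf3r*, the receptor for G-CSF, which fell by 2.33 and 1.39 on the log2 scale (limma adjusted p = 0.00637 and 0.000880). Sums of the erythroid list stayed at or below 20.9 TPM, of the B cell list (2 of 5 markers in the table) at or below 23.2 TPM, and of the T and NK cell list (4 of 8) at or below 28.1 TPM. The megakaryocyte list (5 of 6) ranged from 39.4 to 222 TPM with DMSO and from 27.2 to 72.8 TPM with CCS1477, and the endothelial and stromal list (2 of 7, *Pecam1* and *Pdgfrb*) from 57.8 to 161 TPM and from 16.8 to 27.8 TPM. The part of cell composition in the falls of the receptor genes was not tested.

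Whether the responses differed between the genotypes was tested by the interaction of genotype and treatment. Limma called 0 of 15583 genes (0%), and 659 had an unadjusted p under 0.05. Among the 9 receptor genes 2 were below that unadjusted limit. *Cxcr4* fell less in *T/F* by 0.87 on the log2 scale (SE 0.19, 95% interval 0.44 to 1.29, limma adjusted p = 0.768). *Selplg* differed by 0.80 (SE 0.26, 95% interval 0.22 to 1.38, limma adjusted p = 1.00). For 5 genes (*Itga4*, *Itgb2*, *Selplg*, *Cd44* and *Cxcr4*) the smallest fall of a *D/F* mouse was larger than the largest fall of a *T/F* mouse, which held for 5.97% of all genes. When mice were blocked, *Cxcr4* had an adjusted p of 0.163, and 0 of the 9 genes and 0 of all genes passed in limma, while 3 and 2293 had an unadjusted p under 0.05. *Itgam* differed by 0.11 (95% interval -0.93 to 1.14), an interval that spans both directions, and its sign turned without *D/F* replicate 2 (-0.13).

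**Figure D4:**
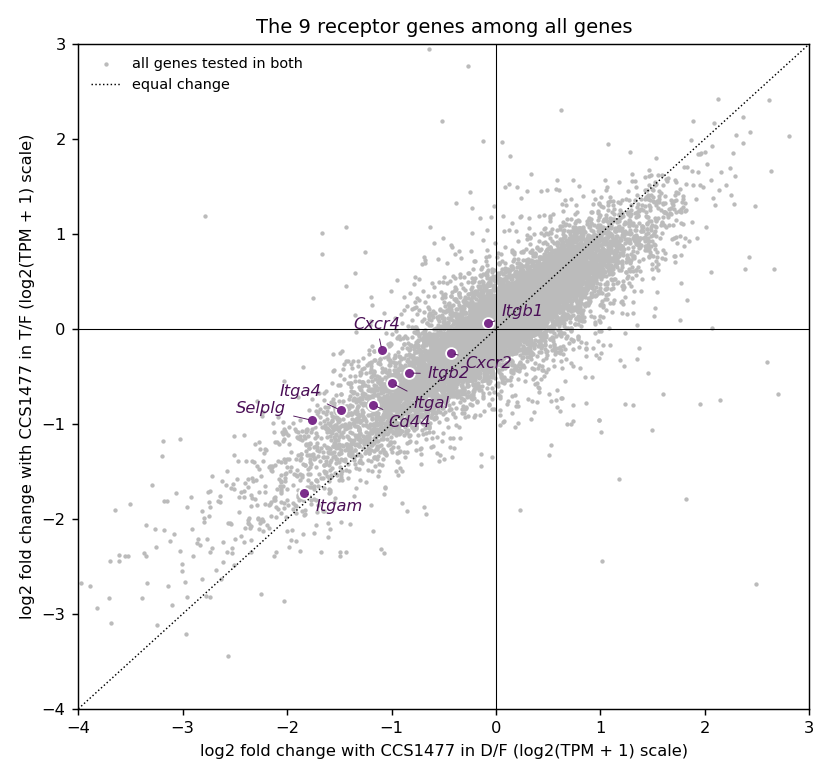
Log2 fold change with CCS1477 in *D/F* (x axis) against *T/F* (y axis) on the log2(TPM + 1) scale for 15172 genes (grey; 10 lie outside the axes), the 9 receptor genes in purple and a dotted line at equal change. *Itgam* lies near the line at -1.84 and -1.73, *Cxcr4* above it at -1.09 and -0.23, and *Itgb1* near the origin.

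Without drug, no receptor gene passed between the genotypes. Limma called 0 of the 9 in *T/F* against *D/F* with DMSO, 0 at an unadjusted p under 0.05, and 5 of 15265 genes (0.0328%; 939 at an unadjusted p under 0.05). Intervals were wide for *Itgam*, with a log2 difference of 0.43 (95% interval -0.17 to 1.04), and narrower for *Cd44*, with -0.02 (95% interval -0.35 to 0.32). With CCS1477, limma called 0 of the 9 and 5 of 15199 genes (0.0329%; 1643 at an unadjusted p under 0.05), and 4 of the 9 had an unadjusted p under 0.05. These were *Cxcr4*, higher in *T/F* by 0.81 (SE 0.13, limma adjusted p = 0.135), *Selplg* by 0.77, *Itga4* by 0.49 and *Itgal* by 0.36.

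Levels in TPM, which is per length, placed the genes in nearly the same order in both genotypes with DMSO. In *D/F* the order was *Cd44* (204 ± 26.3 TPM), *Cxcr4* (169 ± 28.0), *Selplg* (147 ± 19.6), *Itga4* (141 ± 59.0), *Itgb1* (132 ± 4.90), *Itgam* (78.3 ± 28.8), *Itgb2* (65.5 ± 18.7), *Itgal* (61.2 ± 29.7) and *Cxcr2* (46.9 ± 10.6; SD, n = 3). Ranges of neighbours overlapped except between *Itgb1* and *Itgam*. In *T/F*, *Itgb1* stood before *Itga4*, and neighbours were separate between *Cd44* and *Cxcr4* and at each step from *Itga4* down to *Cxcr2*. With CCS1477, *Itgb1* was first in both genotypes, at 125 ± 17.1 TPM in *D/F* and 139.5 ± 6.19 TPM in *T/F* (SD, n = 3), and *Itgam* was last, at 22.2 ± 11.4 and 30.1 ± 1.70 TPM (SD, n = 3). *Cxcr4* overlapped *Itgb1* in treated *T/F* cells (138 ± 5.99 TPM) and in treated *D/F* cells it was below *Itgb1* and overlapped *Cd44* (78.5 ± 9.66 TPM; SD, n = 3).

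Among genes of the same pathways, those that open integrins from inside the cell changed in both directions, as did genes of the whole table. At an adjusted p under 0.05 in limma, 1009 of all 15501 genes fell and 796 rose in *D/F*. In *T/F*, 2685 of all 15256 genes fell and 3935 rose. Of 26 genes of integrin activation and adaptors tested in *D/F*, 6 fell and 2 rose at an adjusted p under 0.05 in limma, with a median log2 fold change of -0.10, and of 25 tested in *T/F*, 6 fell and 6 rose, with a median of -0.03. *Fermt3* encodes kindlin-3, which binds beta subunit tails in blood cells. In *D/F* it fell from 146 ± 19.4 to 41.5 ± 6.99 TPM, and in *T/F* from 148 ± 1.77 to 63.4 ± 5.68 TPM (SD, n = 3; limma adjusted p = 0.00709 and 0.000457). *Rasgrp2*, whose product activates the small GTPase RAP1, fell from 289 ± 38.8 to 96.8 ± 19.7 TPM and from 199 ± 23.8 to 108 ± 23.3 TPM (SD, n = 3; limma adjusted p = 0.0101 and 0.00883). *Ptk2*, the focal adhesion kinase, rose from 1.53 ± 0.861 to 5.85 ± 1.47 TPM and from 1.82 ± 0.163 to 5.98 ± 0.617 TPM (SD, n = 3; limma adjusted p = 0.0261 and 0.000486). The list thus held a fall of the blood cell kindlin and a rise of a widely used adhesion kinase, in both genotypes.

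Without the mouse as a block, most other integrin subunits did not pass, which also held for most genes of the whole table. Limma without a block called 11.6% of all genes for *D/F* and 43.4% for *T/F* (6.51% and 17.6% lower). Whether the counts of these short lists differ from the shares of all genes was not tested. Of 9 other alpha subunits tested, 0 passed in *D/F* and 3 fell in *T/F* by limma (*Itga1*, *Itga5* and *Itgae*), and of 4 other beta subunits 0 passed in *D/F* and *Itgb3* fell in *T/F*. These 4 genes were named after their values were seen. At an unadjusted p under 0.05, 4 alpha subunits were lower and 1 higher in *D/F*, and 0 beta subunits moved. With the mouse as a block, 3 alpha subunits fell and 2 rose in *D/F*, and 5 fell and 2 rose in *T/F*. Only 4 (*D/F*) and 2 (*T/F*) of the 9 alpha subunits then did not pass, and 1 beta subunit fell in each genotype. The blocked fit called 39.3% of all genes for *D/F* and 54.1% for *T/F* (18% and 22.9% lower). *Itga1*, the collagen-binding alpha 1 chain, in *D/F* went from 9.87 ± 4.87 to 2.36 ± 1.69 TPM (SD, n = 3; limma adjusted p = 0.0977). The alpha V chain, *Itgav*, a partner of *Itgb1* and other beta subunits, was higher in all 6 mice (log2 difference of 0.40 over both genotypes, limma adjusted p = 0.00149), and it too was named after its values were seen.

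Of 17 genes of selectins and of the glycans on PSGL-1, 5 fell and 1 rose in *D/F*, and 9 fell and 2 rose in *T/F*, by limma, with medians of -0.61 and -0.28 (9 falls and 1 rise in *D/F* with the mouse as a block). Over all genes tested, 6.51% fell in *D/F* (18% with the mouse as a block) and 17.6% in *T/F*. *Fut7* encodes the fucosyltransferase that completes sialyl Lewis x, the glycan by which PSGL-1 and CD44 bind selectins. In *D/F* it fell from 31.1 ± 11.7 to 4.87 ± 1.10 TPM, and in *T/F* from 19.6 ± 3.73 to 8.43 ± 0.966 TPM (SD, n = 3; log2 fold change -2.41 and -1.11, limma adjusted p = 0.00834 and 0.00303). *St3gal4*, a sialyltransferase of the same glycan, fell from 48.0 ± 2.90 to 17.6 ± 3.85 TPM and from 55.6 ± 5.98 to 26.7 ± 2.97 TPM (SD, n = 3; limma adjusted p = 0.0117 and 0.00168). *Glg1*, which encodes a Golgi protein known as another E-selectin ligand, rose from 58.2 ± 4.33 to 92.5 ± 5.35 TPM and from 54.8 ± 2.17 to 83.0 ± 0.977 TPM (SD, n = 3; limma adjusted p = 0.0352 and 0.00118). In this list 10 of 17 genes were lower in all 6 mice, against 24.4% of the whole table, and 4 were lower in no mouse. The genes named next were chosen after their values were seen. *C1galt1*, *Tpst1* and *Tpst2* were lower in 0 of 6 mice. *C1galt1* rose in *T/F* (limma adjusted p = 0.00272), while *Tpst1* and *Tpst2* did not pass in either genotype. *Fut4* and *Gcnt1* were lower in all 6 mice and fell in *D/F* (limma adjusted p = 0.0459 and 0.0351) and in *T/F* (limma adjusted p = 0.0221 and 0.0305).

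Of 11 genes that link CD44 to the cytoskeleton or process it, 0 fell in either genotype by limma, and 1 rose in *D/F* and 4 in *T/F*. Falls were also a minority in the whole table, at 6.51% (*D/F*) and 17.6% (*T/F*) of its tested genes. Whether 0 of 11 differs from these shares was not tested. Of the 11 genes, 3 were lower in all 6 mice, against 24.4% of the whole table, and 4 were lower in no mouse. At an unadjusted p under 0.05, 1 had fallen in *D/F* and 0 had in *T/F*, and with the mouse as a block 2 rose in *D/F*, and 4 rose and 3 fell in *T/F*. The medians were -0.06 and 0.08. *Slc9a3r1*, which encodes an adaptor of ezrin and its relatives, rose in *D/F* from 67.9 ± 2.58 to 116 ± 8.74 TPM and in *T/F* from 67.9 ± 3.03 to 110.2 ± 3.09 TPM (SD, n = 3; limma adjusted p = 0.0239 and 0.000924).

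Among the other chemokine receptors some falls were larger than that of *Cxcr4*. Of 20 other chemokine and migration receptors tested, 5 fell and 0 rose in *D/F* (7 and 0 at an unadjusted p under 0.05, 10 and 0 with the mouse as a block), and 9 fell and 3 rose in *T/F*, by limma. The medians were -0.72 and -0.44. Over the whole table, 6.51% of genes fell in *D/F* (18% with the mouse as a block) and 17.6% in *T/F*. *Ccr2*, the receptor that brings monocytes out of the marrow, fell in *D/F* from 119 ± 21.7 to 6.52 ± 2.27 TPM and in *T/F* from 276 ± 56.8 to 38.7 ± 8.81 TPM (SD, n = 3; log2 fold change -4.02 and -2.81, limma adjusted p = 0.00310 and 0.000536). Of 29 signalling genes downstream of chemokine receptors, 5 fell and 1 rose in *D/F*, and 8 fell and 5 rose in *T/F*, with medians of -0.49 and -0.08 (11 falls and 2 rises in *D/F* with the mouse as a block). *Plcb2*, a phospholipase driven by G protein subunits, fell from 122 ± 38.1 to 29.6 ± 7.12 TPM and from 83.8 ± 2.90 to 38.2 ± 2.00 TPM (SD, n = 3; limma adjusted p = 0.0113 and 0.000409), and *Fgr*, a myeloid kinase that acts downstream of beta 2 integrins, had log2 fold changes of -2.26 and -2.04 (limma adjusted p = 0.0180 and 0.000397). *Grk5*, a kinase that desensitizes receptors coupled to G proteins, rose by 1.32 and 1.12 on the log2 scale (limma adjusted p = 0.0188 and 0.00220).

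**Figure D5:**
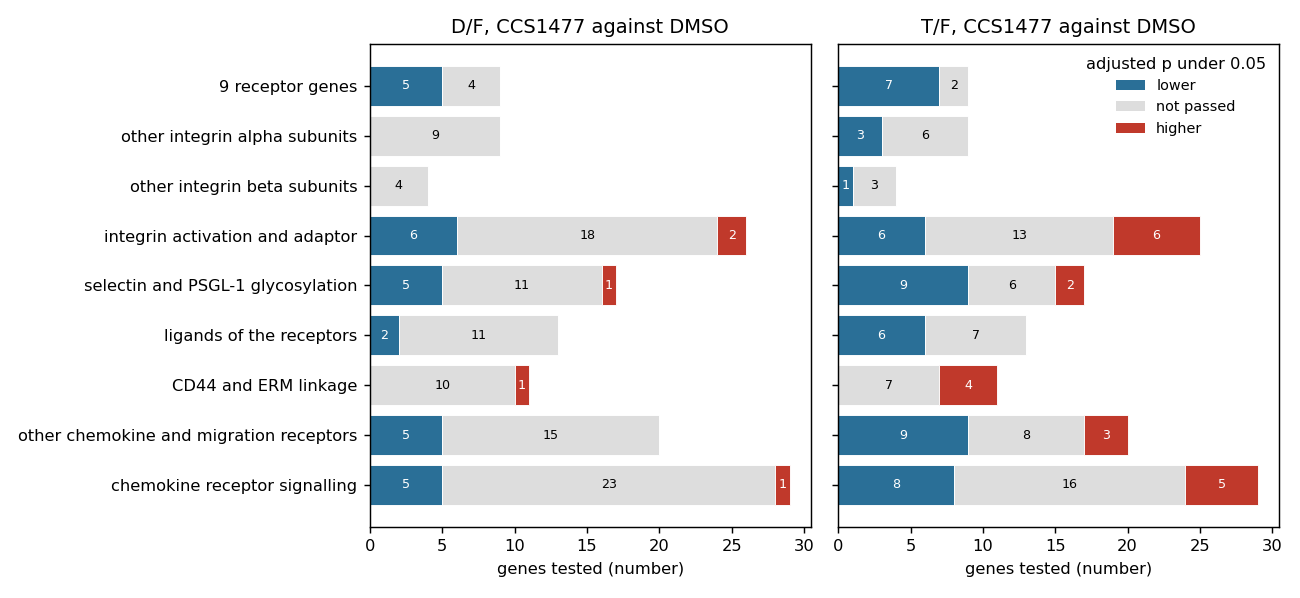
Number of genes tested (x axis) in the 9 receptor genes and in 8 lists of genes of the same pathways that were lower (blue), higher (red) or did not pass (grey) at an adjusted p under 0.05 in limma, in *D/F* (left) and *T/F* (right). The list linked to CD44 held 0 falls of 11 in both genotypes, and the list of selectins and PSGL-1 glycosylation 5 and 9 falls of 17. Over all genes tested, 6.51% fell in *D/F* and 17.6% in *T/F*.

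Several ligands of the receptors are made by vessel walls, stroma or platelets. Of the 24 ligands on the list, 13 are among the genes analysed here, not including *Cxcl12*. In *D/F* 2 fell and in *T/F* 6 fell, and 0 rose in either, by limma (1 was higher in *D/F* and 0 in *T/F* at an unadjusted p under 0.05). With the mouse as a block, 7 fell and 1 rose in *D/F* and 11 fell in *T/F*. The medians were -0.76 and -0.58. Over the whole table, 6.51% of genes fell in *D/F* and 17.6% in *T/F* (18% and 22.9% with the mouse as a block). *Icam2*, a ligand of LFA-1 and Mac-1 that leukocytes also express, fell in *D/F* from 53.6 ± 7.24 to 16.2 ± 2.77 TPM and in *T/F* from 42.2 ± 2.97 to 18.5 ± 1.22 TPM (SD, n = 3; limma adjusted p = 0.00767 and 0.000532). *Vcam1*, the ligand of VLA-4, was 8.88 ± 3.30 TPM in *D/F* and 1.34 ± 0.427 TPM in *T/F* with DMSO, and 0.174 ± 0.0897 and 0.0378 ± 0.0256 TPM with CCS1477 (SD, n = 3; limma adjusted p = 0.00430 and 0.00189 for the treatment). Its difference between the genotypes with DMSO did not pass (limma adjusted p = 0.184), nor did its difference of responses (limma adjusted p = 0.768). A further 4 fell in *T/F* without passing in *D/F*, for which the difference itself was not called: *Fn1* (fibronectin; log2 fold change -1.22 in *D/F* and -1.16 in *T/F*), *Mif* (-0.58 and -0.37), *Ppbp* (-2.04 and -1.18) and *Icam4* (-0.04 and -0.51). The remaining 7 did not pass in either genotype without the mouse as a block. Their log2 fold changes in *D/F* and *T/F* were 0.17 and -0.24 for *Icam1*, 1.25 and 0.60 for *F11r*, -1.07 and -1.30 for *Spp1*, -0.76 and -0.61 for *C3*, 0.32 and -0.23 for *Cxcl5*, -1.07 and -0.58 for *Pf4*, and -0.24 and -0.02 for *Has3*. When mice were blocked, *Spp1*, *C3* and *Pf4* fell in both genotypes, *F11r* rose in *D/F*, and *Icam1* and *Cxcl5* fell in *T/F*.

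The genes whose profiles were most like those of the receptors were found by the root mean square difference of centred log2(TPM + 1) over the 12 libraries, among 11603 genes that averaged 5 TPM or more. For *Selplg*, whose own profile spans 2.28, the nearest were *Fermt3* at 0.164, *Cd48* and *St3gal4*. *Cxcr4* was nearest to *Rassf5* at 0.158, *Zfp710* and *Rac2*, 2 of which encode RAPL, a partner of RAP1, and the GTPase RAC2 of blood cells. *Itga4* was nearest to *Dock10* at 0.121, *Ptpre* and *Arhgap15*, *Cd44* to *Arhgef6* at 0.1, *Tm6sf1* and *Slc35c2*, and *Itgal* to *Elk3* at 0.141, *Fgd3* and *Arhgap4*. For *Itgb2* they were *Txndc5* at 0.177, *Evi2a* and *Cyba*, for *Cxcr2* *Cflar* at 0.0900, *Acox3* and *B4galt7*, and for *Itgam*, with the widest span of 3.14, *Plppr3* at 0.250, *Pilrb1* and *Hfe*. The 12 libraries share treatments and mice, so closeness describes these profiles only.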

How the data were processed

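RNA was sequenced from c-Kit-enriched splenocytes of 3 *D/F* and 3 *T/F* mice, with and without CCS1477. The authors deposited TPM per Ensembl gene, made with kallisto per the labels, on the build mm10. The study's methods name AltAnalyze, and the annotation and settings are not given in the sources used here. Deposited TPM were linear, summed to between 914204 and 931697 per library, and had a highest value of at least 2.00 in each gene, so low genes had been left out. TPM keeps no read numbers: depth is unknown, no count model was used, and precision is the spread between 3 mice. Symbols were matched for 15252 of 15651 genes, and positions came from GENCODE vM21.

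Values were compared as log2(TPM + 1) with the limma package (version 3.58.1, R 4.3.3). Its empirical Bayes step had no trend, p-values were two-sided, and Benjamini-Hochberg adjustment was over all genes tested, which were those with a group mean of 1 TPM or more. This scale understates changes of low genes. A gene passed at an adjusted p under 0.05. Fits within a genotype used its 6 samples, and the joint fits all 12. Ratios had exact permutation tests within a genotype, which did not use the pairing by mouse. The fits were tested on simulated data.

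The receptor genes, the lists of partner genes and the marker lists were chosen with earlier results of these data known. From each partner list the text names up to 2 rises and 2 falls, by the change over both genotypes, among genes that passed in both genotypes, had the same sign in all 6 mice and a mean of 5 TPM or more in the higher group, and every ligand in the table. A gene that this rule names is not reported here. Samples with the same replicate number came from the same mouse per the labels. After subtracting group means they correlated across genes at 0.539, 0.669 and 0.541 (*D/F* mice) and at 0.383, 0.354 and 0.496 (*T/F* mice), and samples of different mice at up to 0.141 within a genotype and 0.372 between genotypes. The numbers were taken as pairs because the labels give the mouse, but the main fits had no term for the mouse. The fit with the mouse as a block was an alternative, with a pseudocount of 0.1, no filter, a 5 TPM filter, median scaling, quantile normalization, eBayes with a trend, and leaving out each mouse. Comparisons of protein sequences were not made.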

Additional observations from a re-analysis of the deposited data

How the results depend on the processing

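Log2 fold changes of the 9 receptor genes between CCS1477 and DMSO kept their direction under every alternative within a genotype, except *Itgb1* in *D/F*, which was 0.0292 with quantile normalization. Of 63 such values in *D/F* with a setting other than a left-out mouse, 57 kept direction and side of the limit, 1 lost the call and 4 gained it; of 63 in *T/F*, 60 kept both and 3 gained it. With the mouse as a block, 8 of the receptor genes and 6098 of all genes passed in *D/F*, and it changed no call beyond those given with the genes. Quantile normalization gave 2829 genes in *D/F*. In *T/F*, median scaling gave 2 receptor genes above 2-fold. With a mouse left out, between 0 and 3739 genes, 0 and 4 receptor genes and 0 and 3 above 2-fold passed in *D/F*, and between 3192 and 5122 genes and 4 and 5 receptor genes in *T/F*. *Itgb1* was 0.0793 over both genotypes with quantile normalization, and between -0.0393 and 0.0576 there and between -0.19 and 0.0562 in *D/F* with a mouse left out. The difference of responses of *Itgam* was between -0.13 and 0.26 with a mouse left out.

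Between the genotypes with DMSO, 9 genes passed with a 5 TPM filter and 9 with quantile normalization, and between 4 and 9 with a mouse left out; with CCS1477, 11 passed with a trend and between 2 and 27 with a mouse left out. With DMSO, log2 differences near 0 changed sign: with median scaling *Selplg* was 0.0032 and *Cd44* 0.0147, and with a mouse left out *Itgal* was between -0.34 and 0.29, *Itga4* between -0.31 and 0.18, *Itgb1* between -0.0269 and 0.0729, *Selplg* between -0.13 and 0.0657, *Cd44* between -0.11 and 0.0769, *Cxcr4* between -0.13 and 0.0762 and *Cxcr2* between -0.29 and 0.0315. *Cxcr2* with CCS1477 was between -0.0270 and 0.17. Causes of these changes were not tested, and a left-out mouse also leaves fewer samples. Depth is unknown, so no limit from read numbers can be given.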
